A study of Mus musculus with 24 samples.

Results

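The genes described here are the 4 mouse EGR transcription factors, Egr1, Egr2, Egr3 and Egr4, and the 2 NAB corepressors, Nab1 and Nab2. They were chosen by symbol, as 6 of the 35191 genes in a table of raw RNA sequencing counts, by a rule that sets no threshold on a measured value. The table covers 24 pituitary libraries, 3 in each of 8 groups that combine 2 sexes with 4 genotypes. Wild type mice, written wt (-), had neither Cre recombinase nor a floxed allele, Cre control mice, wt (+), carried Cre alone, Egr1cKO control mice, FF (-), carried floxed Egr1 alone, and Egr1cKO mice, FF (+), carried floxed Egr1 and Cre. Egr1cKO is the study's name for a conditional knockout of Egr1, and the design text gives the sex difference in these mice as its subject. The sources used here do not give the Cre driver, the targeted exon or the age of the mice. RNA was purified with a spin column kit and sequenced from polyA libraries that do not keep the strand.

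EGR proteins are immediate early transcription factors. Their genes respond within minutes to hormones, growth factors and cell depolarisation, through serum response factor with its Elk partners at CArG boxes and through CREB at cyclic AMP response elements (CRE). The EGR proteins share closely related zinc fingers that bind GC-rich sites such as GCGTGGGCG. NAB1 and NAB2 have no DNA-binding domain of their own. They bind an inhibitory region that EGR1, EGR2 and EGR3 carry and EGR4 lacks, and they recruit the NuRD chromatin remodelling complex through CHD4. In the pituitary, EGR1 is best known in gonadotropes, where it acts downstream of gonadotropin-releasing hormone, and loss of Egr1 in mice impairs female fertility. EGR2 is best known as the driver of myelination in Schwann cells, EGR3 for muscle spindles and lymphocytes, and EGR4 for male germ cells.

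The promoters of 4 of the 6 genes were taken from RefSeq windows of GRCm38.p6 that run from 250 bases before to 50 bases after a start site. Egr3 had no entry, and no window of Egr1 was searched. Each window was searched on both strands for the EGR sites GCGTGGGCG and GCGGGGGCG, the CRE TGACGTCA, its core TGACG, which the full CRE also contains, and the CArG box. Of 32851 windows of this length, 0.612% held GCGTGGGCG, 2.91% held GCGGGGGCG, 1.79% held the full CRE, 20.8% held the core and 1.63% held a CArG box. The windows of Egr2 and Egr4 are printed because both genes moved with Egr1 between libraries, and that of Nab1 because it held EGR sites while Nab1 did not move with the EGR genes. Matches are in capitals, and all 3 sequences run 5′ to 3′ along the gene's own strand, at chr10:67537619-67537918 (plus strand) for Egr2, chr6:85513540-85513839 (minus strand) for Egr4 and chr1:52500399-52500698 (minus strand) for Nab1.
Egr2: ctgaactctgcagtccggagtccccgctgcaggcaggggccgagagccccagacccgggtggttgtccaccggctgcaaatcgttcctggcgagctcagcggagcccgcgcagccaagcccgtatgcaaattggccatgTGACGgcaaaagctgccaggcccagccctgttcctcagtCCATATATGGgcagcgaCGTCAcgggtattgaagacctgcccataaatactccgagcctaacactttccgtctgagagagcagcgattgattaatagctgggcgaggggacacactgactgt
Egr4: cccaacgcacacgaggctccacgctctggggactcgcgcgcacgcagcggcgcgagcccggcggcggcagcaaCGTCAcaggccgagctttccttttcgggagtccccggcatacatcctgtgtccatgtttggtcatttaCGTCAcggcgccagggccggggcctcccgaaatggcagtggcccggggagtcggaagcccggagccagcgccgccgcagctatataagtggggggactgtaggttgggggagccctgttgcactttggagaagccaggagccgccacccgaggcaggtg
Nab1: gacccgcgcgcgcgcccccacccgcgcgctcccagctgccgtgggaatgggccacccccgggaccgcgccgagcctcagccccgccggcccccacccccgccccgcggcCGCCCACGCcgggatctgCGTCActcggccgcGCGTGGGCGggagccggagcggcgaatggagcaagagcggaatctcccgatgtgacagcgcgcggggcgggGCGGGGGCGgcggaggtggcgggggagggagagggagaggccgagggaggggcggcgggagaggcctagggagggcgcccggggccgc

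The Egr2 window held a CArG box that begins 72 bases before the start site, between CRE cores that begin 111 and 55 bases before it. It is 1 of 5 Egr2 windows, of which 3 overlap over most of their length and hold the same matches, 1 further window held a CArG box alone and 1 held no match. The Egr4 window held CRE cores 177 and 109 bases before its start and no other match. The Nab1 window held GCGTGGGCG at 141 bases before its start on the opposite strand and at 109 bases on its own strand, GCGGGGGCG at 38 bases, and a CRE core at 123 bases. The Nab2 window, chr10:127666654-127666953 on the minus strand, held no match. It lies inside the gene as annotated for the counts (127660918 to 127668568), and the sequence around that outer start was not searched. A match is a description of the letters, not evidence of a bound site.

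The libraries held 15486069 to 26255343 counts each, and replicates of a group differed by more than counting noise (lowest chi-square per degree of freedom 16.3 over 24 pairs). Levels are CPM values, counts scaled to a common library total with TMM factors. Where groups are said not to overlap, the share of all genes that did the same was not counted, so this is description only. The labels name the tissue pituitary and the cell type endocrine, and the hormone genes Gh, Prl, Pomc, Tshb, Cga and Fshb were above 0 in all 24 libraries. The share of counts from mitochondrially encoded genes ran from 2.08% to 4.8% in males and from 2.14% to 10.4% in females. The titles number the floxed and the unfloxed libraries in separate series, so floxing and series cannot be told apart. The labels do not say whether replicate libraries are separate animals, so a p-value measures only the spread between these samples, which may be technical. In bulk tissue, fewer cells of a type and less RNA per cell cannot be told apart.

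Egr1 (ENSMUSG00000038418, GRCm38 chromosome 18, 34859823 to 34864984, plus strand) is the targeted gene. It was present in all 24 libraries, at 7.55 to 486 CPM with a median of 47.5, a 64.3-fold range. In males it measured 19.1, 43.8 and 51.5 CPM in wild type, 486, 74.3 and 25.3 in Cre control, 51.1, 22.7 and 42.7 in Egr1cKO control, and 58.3, 238 and 105 in Egr1cKO. In females it measured 10.9, 167 and 31.8 CPM in wild type, 61.7, 486 and 94.8 in Cre control, 34.2, 11 and 9.79 in Egr1cKO control, and 162, 7.55 and 26.6 in Egr1cKO. A single library stood far above the other 2 in several groups. The male Egr1cKO libraries all lay above the male Egr1cKO controls, and the female ones overlapped. The group means of Egr1 RNA were not lower in Egr1cKO than in FF (-). They were 134 against 38.9 CPM in males and 65.5 against 18.3 CPM in females. Female Egr1cKO replicate 2, at 7.55 CPM, lay below all female Egr1cKO controls. Counts summed over the gene do not reveal whether an exon was lost, since transcripts without it are still counted.

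Egr2 (ENSMUSG00000037868, chromosome 10, 67535475 to 67542188, plus strand) was the least abundant of the 6 genes. It ranged from 0.0935 CPM, which is 2 counts in female Egr1cKO replicate 3, to 16.3 CPM, or 325 counts, in male Cre control replicate 1. Male wild type libraries held 4.07, 4.53 and 4.36 CPM, and female wild type libraries 1.49, 2.73 and 2.73. These groups did not overlap. Male Cre control libraries held 16.3, 2.95 and 1.08 CPM, against 0.399, 5.16 and 1.1 in females. Egr1cKO controls held 2.96, 4.45 and 3.43 CPM in males and 3.06, 0.561 and 1.28 in females, and both of these pairs of groups overlapped. Male Egr1cKO libraries held 3.62, 13.2 and 2.99 CPM, all above the 2.34, 0.783 and 0.0935 CPM of female Egr1cKO.

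Egr3 (ENSMUSG00000033730, chromosome 14, 70077203 to 70082614, plus strand) ranged from 0.781 to 80 CPM with a median of 5.88. Male libraries measured 3.77, 0.808 and 2.65 CPM in wild type, 80, 5.71 and 0.809 in Cre control, 0.781, 9.42 and 5.5 in Egr1cKO control, and 18.8, 23.2 and 7.32 in Egr1cKO. Female libraries measured 4.93, 28.7 and 4.45 CPM in wild type, 7.52, 56 and 7.82 in Cre control, 28.3, 6.04 and 2.35 in Egr1cKO control, and 15.3, 3.75 and 4.21 in Egr1cKO. The highest and the lowest male Cre control library differed 99-fold, the widest spread of Egr3 within a group.

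Egr4 (ENSMUSG00000071341, chromosome 6, 85511121 to 85513589, minus strand) spanned the widest range, 0.214 to 94.9 CPM or 444-fold, with a median of 5.26. Male libraries measured 1.3, 1.17 and 4.13 CPM in wild type, 82, 1.99 and 2.46 in Cre control, 0.446, 3.07 and 6 in Egr1cKO control, and 7.38, 18 and 7.32 in Egr1cKO. Female libraries measured 4.52, 15.3 and 2.53 CPM in wild type, 12.1, 94.9 and 12.5 in Cre control, 12.6, 3.61 and 0.214 in Egr1cKO control, and 14.2, 2.91 and 10.8 in Egr1cKO. All 3 male Egr1cKO libraries lay above all 3 male Egr1cKO controls, while the male Cre control and male wild type libraries overlapped.

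Nab1 (ENSMUSG00000002881, chromosome 1, 52457294 to 52500679, minus strand) was the steadiest of the 6, at 20.4 to 55.7 CPM with a median of 36.8. Its group means lay between 33.0 CPM (SD 11.4, n = 3) in female wild type and 41.8 CPM (SD 14.5, n = 3) in male Egr1cKO. The 3 male Cre control libraries, which differed 19.2-fold in Egr1, held 37.7, 39.5 and 38.6 CPM of Nab1.

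Nab2 (ENSMUSG00000025402, chromosome 10, 127660918 to 127668568, minus strand) is itself known as a gene that EGR proteins induce, and its product feeds back on them. It ranged from 14.1 to 76.8 CPM with a median of 38.7. Male libraries measured 43.7, 76.8 and 16.1 CPM in wild type, 25.8, 17.5 and 15.1 in Cre control, 28.7, 46.1 and 31.8 in Egr1cKO control, and 51.5, 16.7 and 58.5 in Egr1cKO. Female libraries measured 57.9, 29.3 and 14.1 CPM in wild type, 41.1, 34.5 and 55.2 in Cre control, 37.7, 39.8 and 43.6 in Egr1cKO control, and 47.4, 31 and 58.8 in Egr1cKO. The male Cre control libraries all lay below the female ones. Nab2 shares 1050 exonic bases with the antisense transcript Gm16229, 151 with Nemp1 and 40 with Stat6 on the other strand, and reads from these genes cannot be told apart in unstranded libraries.

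**Figure D1:**
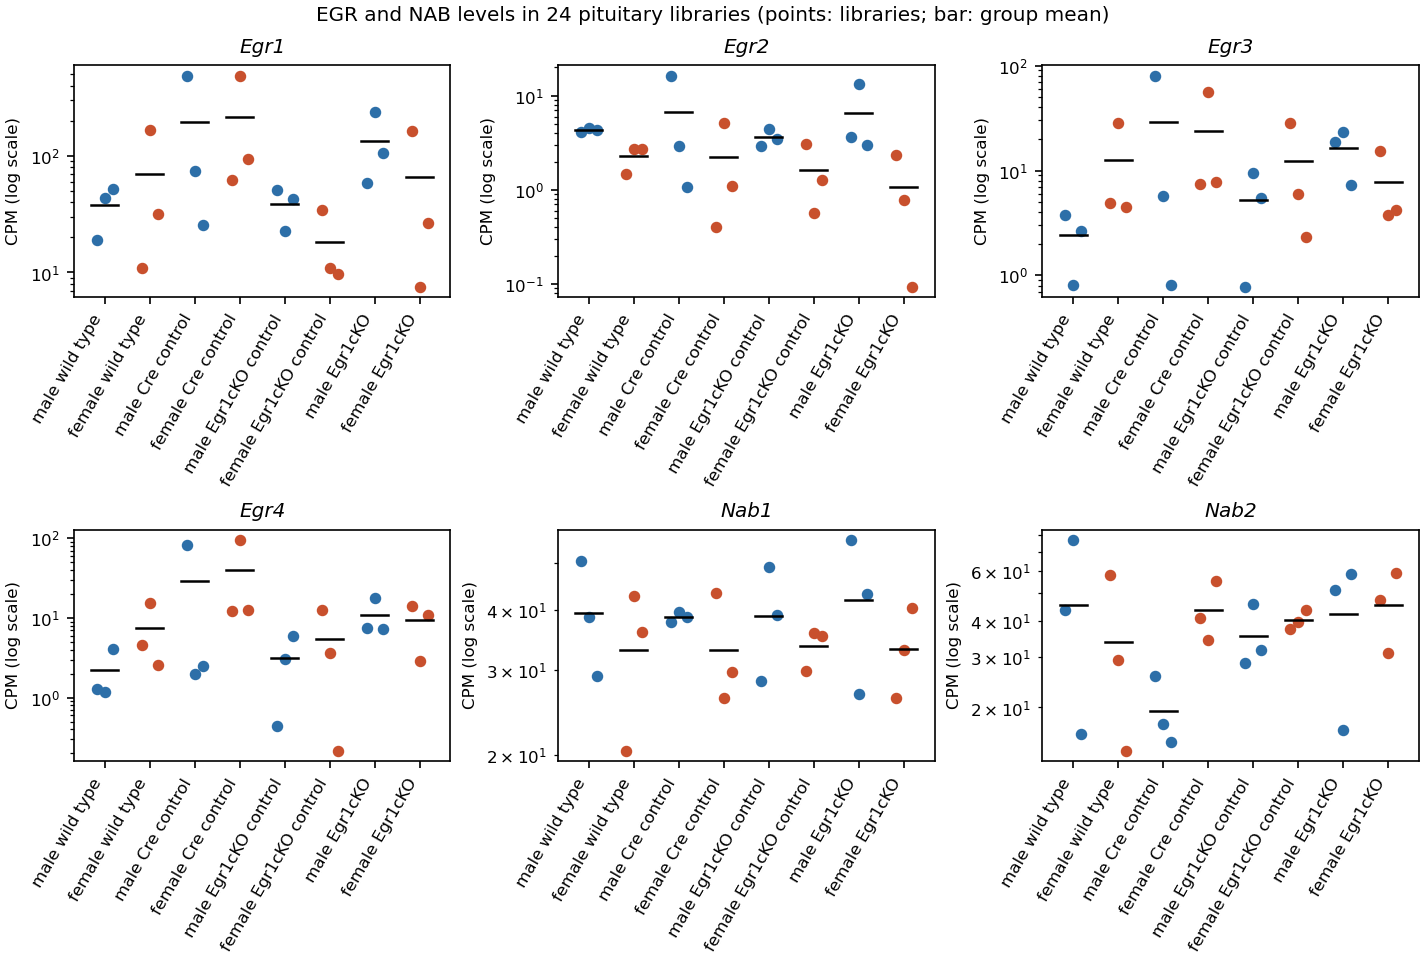
Level of each gene in the 24 libraries, as CPM on a log axis, by group; points are libraries (blue male, red female) and bars are group means of 3. The EGR panels span 64.3-fold to 444-fold between the lowest and the highest library, against 2.73-fold for Nab1 and 5.44-fold for Nab2, and the axes differ between panels.

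Between genes, levels were compared per kilobase of exonic sequence. The median over the 24 libraries was 13.2 CPM per kb for Nab2, 10.6 for Egr1, 8.97 for Nab1, 2.45 for Egr4, 1.33 for Egr3 and 0.869 for Egr2. Neighbours in this order often changed places. Nab1 was above Nab2 in 7 of 24 libraries, and Egr1 was the highest of the 6 genes in 10. The gap between the abundant and the scarce members was wider: both NAB genes exceeded Egr2, Egr3 and Egr4 in 20 of 24 libraries, and Egr2 was the lowest of the 6 in 18.

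Much of the variation of the EGR genes lay between libraries of the same group. The standard deviation of log2 CPM around the group means, with a prior count of 2, was 1.54 for Egr1, 1.28 for Egr2, 1.78 for Egr3 and 1.84 for Egr4. It was 0.381 for Nab1 and 0.702 for Nab2, and the median of all 21927 genes tested was 0.498. The spread of the EGR genes exceeded that of 86.5% (Egr2) to 99.7% (Egr4) of the tested genes, that of Nab1 39.1% and that of Nab2 60.4%. These shares depend on the prior count for low genes: with a prior count of 0.5 they were 73.4% for Egr1, 69.8% for Egr2, 81.2% for Egr3 and 84.7% for Egr4. Against the 12340 genes with a mean of at least 5 CPM, the spread of each EGR gene exceeded that of at least 99.5%. In the same set the share was 69% for Nab1 and 96.3% for Nab2. Egr2, at 1.81 CPM in females and 5.33 CPM in males, averaged under 5 CPM. It was thus ranked against more abundant genes and is not 1 of them.

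The EGR genes co-varied from library to library within groups, and over all 24 libraries no pair that held a NAB gene passed the test. Deviations from the group mean were correlated over the 24 libraries for all 15 pairs of the 6 genes, with a permutation test of 100000 resamples within groups and Benjamini-Hochberg (BH) adjustment over the 15 pairs. For Egr3 and Egr4, Pearson's r was 0.862 (permutation p = 0.0004, BH 0.006) and Spearman's rho was 0.847 (permutation p = 0.00024, BH 0.0036). For Egr2 and Egr3, r was 0.728 (permutation p = 0.002, BH 0.01) and rho 0.641 (permutation p = 0.0067, BH 0.034). Of the 6 pairs of EGR genes, 5 passed at 0.05 by r, and the 9 pairs with a NAB gene did not, with r from -0.396 to 0.255. By rho, 3 of the 6 EGR pairs passed and 0 of the 9 others.

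Egr1 passed with each of the other EGR genes by r, and by rho with Egr4 alone. With Egr2, r was 0.725 (permutation p = 0.0071, BH 0.021) and rho 0.63 (permutation p = 0.016, BH 0.06). With Egr3, r was 0.691 (permutation p = 0.0044, BH 0.016) and rho 0.53 (permutation p = 0.026, BH 0.079). With Egr4, r was 0.688 (permutation p = 0.0019, BH 0.01) and rho 0.643 (permutation p = 0.0057, BH 0.034). The 2 libraries farthest from the median of Egr1 were male Cre control replicate 1 and female Cre control replicate 2, both at 486 CPM. Without them r was 0.558 with Egr2, 0.504 with Egr3 and 0.505 with Egr4, and none of these passed (BH 0.24, 0.18 and 0.18). Whether those calls were lost through the values left out or through fewer libraries was not tested. The pair Egr3 and Egr4 also missed the threshold without the same 2 libraries, with r = 0.752 (BH 0.081), while Egr2 and Egr3 kept r = 0.792 without the 2 libraries farthest in Egr2. With 1 library left out at a time, Egr1 with Egr4 kept its call by r in all 24 fits (permutation test, BH up to 0.043). Egr1 with Egr2 lost its call in 5 of them and Egr1 with Egr3 in 1.

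Egr2 and Egr4 did not pass (r = 0.555, permutation p = 0.04, BH 0.1; rho = 0.499, permutation p = 0.048, BH 0.12). Nab1 and Nab2 had r = 0.255 (permutation p = 0.42, BH 0.64; rho = 0.289, permutation p = 0.3, BH 0.49). Leaving out 1 library moved that r from 0.0309 (without male Egr1cKO replicate 2) to 0.612 (without female wild type replicate 1), and it was 0.583 without the 2 libraries farthest in Nab1. The lowest r was that of Egr2 with Nab1, at -0.396 (permutation p = 0.049, BH 0.1; rho = -0.32, permutation p = 0.16, BH 0.3). Without female wild type replicate 1, Nab1 passed as a negative partner of Egr1 (r = -0.527, BH 0.021 in the permutation test) and of Egr2 (r = -0.54, BH 0.019 in the permutation test). The same library was the highest of its group for Egr1 and Egr4 in 7 of 8 groups, for Egr1 and Egr3 in 6, for Egr1 and Egr2 in 5, and for all 4 EGR genes in 5. For Egr1 and Nab1, and for Egr1 and Nab2, it was the same in 1 of 8.

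**Figure D2:**
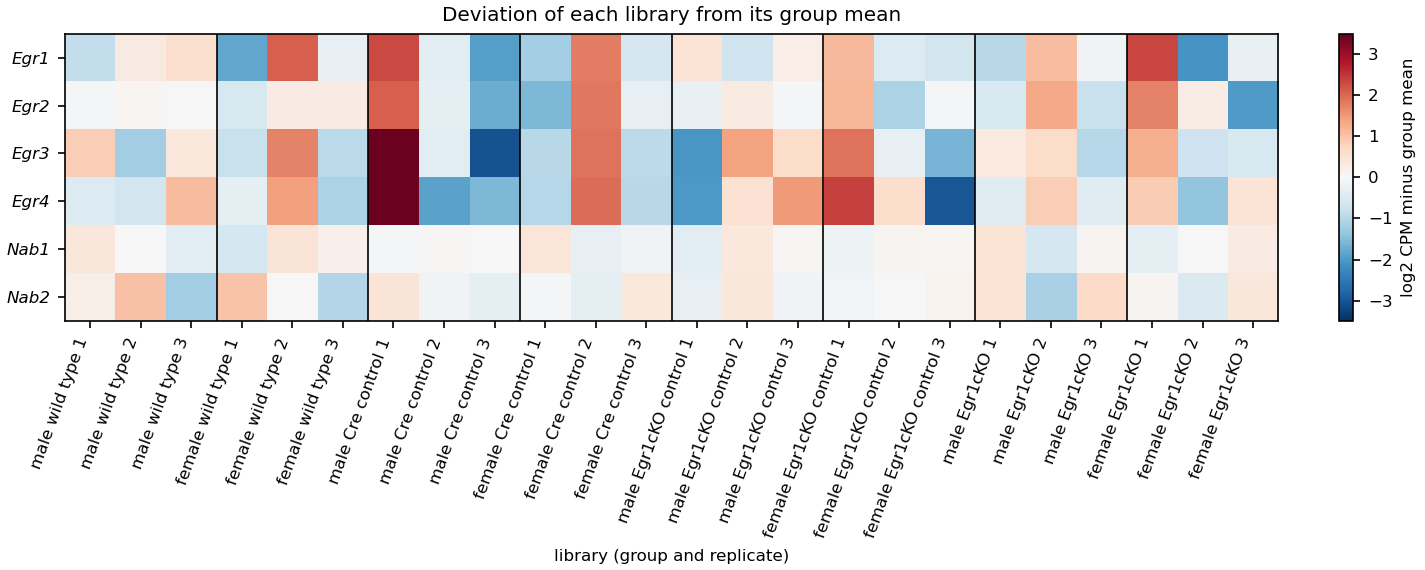
Deviation of log2 CPM from the group mean for each of the 6 genes (rows) in each library (columns, by group and replicate), red above and blue below the mean. Values run from 3.43 for Egr4 in male Cre control replicate 1 to -3.05 for Egr3 in male Cre control replicate 3, where all 4 EGR rows share the direction. Other columns are not shared, as in male Egr1cKO control replicate 1 (Egr3 -2.04, Egr1 0.47), and the Nab1 row is pale throughout.

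The genes whose within-group deviations were most like those of each EGR gene were mostly other immediate early genes. They were taken from 11707 genes with a mean of at least 5 CPM, by Pearson's r over the 24 libraries, as a description with no test. For Egr1 they were Fos (r = 0.863), which encodes an AP-1 subunit, Dusp1 (0.858), a phosphatase of MAP kinases, and Fosb (0.843). For Egr2 they were Btg2 (0.888), an antiproliferative early gene, Lzts2 (0.845) and Nr4a1 (0.798), an orphan nuclear receptor. For Egr3 they were Rcan1 (0.864), a calcineurin inhibitor, Nr4a2 (0.848) and Fosb (0.845). For Egr4 they were Nr4a2 (0.943), Fosb (0.897) and Fosl2 (0.891). Egr4 and Nr4a2 had the same highest library in 8 of 8 groups, and Egr1 had the same one as Fos in 7. For the NAB genes the nearest were of other kinds: Nup98 (0.825), Peg10 (0.82) and Maf (0.816) for Nab1, and Nudt3 (0.824), Mrpl45 (0.819) and Msl1 (0.816) for Nab2.

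A list of 32 immediate early genes outside the EGR family, of which 31 were tested and Fosl1 was not, gave the same picture. The median r over the 31 genes was 0.588 with Egr1, 0.493 with Egr2, 0.662 with Egr3 and 0.639 with Egr4, against -0.109 with Nab1 and 0.0437 with Nab2. An r above 0.5 was reached by 18 of 31 with Egr1, 15 with Egr2, 19 with Egr3 and 20 with Egr4, and by 1 with Nab1 and 4 with Nab2. Over all other genes tested, r above 0.5 was reached by 3.73% with Egr1, 3.16% with Egr2, 1.49% with Egr3 and 1.37% with Egr4, and by 6.22% with Nab1 and 7% with Nab2. Not every early gene took part: Dusp2, another MAP kinase phosphatase, had r = -0.487 with Egr1 and -0.524 with Egr2.

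**Figure D3:**
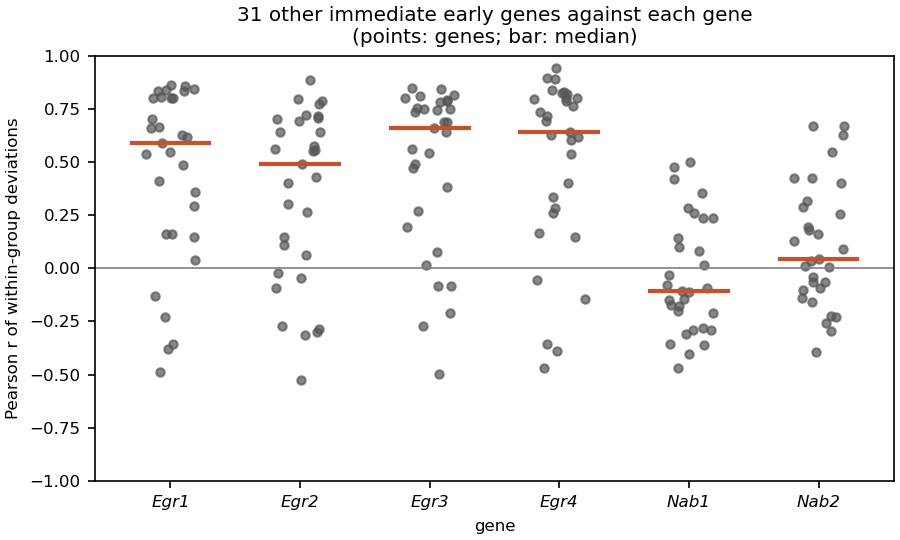
Pearson's r of the within-group deviations of 31 other immediate early genes with those of each of the 6 genes; points are genes and bars are medians. The medians lie between 0.493 and 0.662 for the EGR genes and at -0.109 and 0.0437 for Nab1 and Nab2, and each column holds some early genes below 0.

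Other parts of the pathway did not share this pattern. Of 19 genes that carry signals from receptors to serum response factor and CREB, r above 0.5 was reached by 0 with Egr1, 0 with Egr2, 1 with Egr3 (Srf, serum response factor itself, 0.545) and 1 with Egr4 (Crem, a CREB relative, 0.547). With Nab1 it was reached by 3 of the 19, and with Nab2 by 3, with 3 more below -0.5. Of the 13 NuRD genes, r above 0.5 was reached by 0 with Egr1, Egr2 and Egr4 and by 1 with Egr3 (Hdac1, a histone deacetylase, 0.535). With Nab1 it was reached by 1 (Gatad2a, 0.526) and with Nab2 by 1 (Mbd3, 0.604), with 2 below -0.5, the lowest being Mta3 (-0.633). Of the 16 textbook EGR target genes tested, Fasl being the untested one, 0 reached it with any of the 6 genes. Ptp4a1, a phosphatase gene, had the highest r with Egr1, at 0.47, and Syn1, a synaptic vesicle gene, the lowest, at -0.504. With Nab1 the lowest of these was Vegfa, an angiogenic growth factor, at -0.75.

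The Cre effect compares Cre control with wild type and shows what Cre did without a floxed allele. None of the 6 genes was called in the mean of both sexes, where 1.04% of all 21927 genes were called by edgeR's quasi-likelihood test at a BH adjusted p under 0.05. The point estimates were large for 3 EGR genes, with wide errors, and these 3 had an unadjusted p under 0.05. Egr4 averaged 34.3 CPM with Cre and 4.82 CPM without, which is 3.05 on the log2 scale (SE 1.05, 95% interval 0.83 to 5.27, edgeR adjusted p = 0.257). Egr3 averaged 26.3 and 7.55 CPM, which gave 2.25 (SE 1, edgeR adjusted p = 0.42). Egr1 averaged 205 and 54.0 CPM, which gave 1.98 (SE 0.887, edgeR adjusted p = 0.423). The value of Egr2 was 0.29 (SE 0.652), of Nab1 -0.01 (SE 0.194) and of Nab2 -0.43 (SE 0.361). Without male Cre control replicate 1, the values were 1.21 for Egr4, 0.68 for Egr3 and 1 for Egr1. DESeq2, which called 493 of all genes here against 229 in edgeR, called Egr4 (log2 fold change 3.06, adjusted p = 0.0365) and no other member.

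Within each sex the same holds for the calls. In males, where 0.233% of all genes were called, the log2 fold change was 3.68 for Egr4 (SE 1.54, edgeR adjusted p = 0.41), 3.59 for Egr3 (SE 1.51, edgeR adjusted p = 0.413) and -1.23 for Nab2 (SE 0.517, edgeR adjusted p = 0.407). The other values were 2.35 for Egr1 (SE 1.27), 0.64 for Egr2 (SE 0.914) and -0.03 for Nab1 (SE 0.274). Without male Cre control replicate 1, the value was -0.01 for Egr4 and 0.45 for Egr3, and without male wild type replicate 2 that of Nab2 was -0.62. In females, where 1.21% were called, it was 2.42 for Egr4 (SE 1.43, edgeR adjusted p = 0.419), 0.91 for Egr3 (SE 1.35) and 0.37 for Nab2 (SE 0.509). Egr1 had 1.61 (SE 1.24), Egr2 -0.05 (SE 0.931) and Nab1 0 (SE 0.275). Without female Cre control replicate 2, the value was 0.72 for Egr4 and -0.73 for Egr3.

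The Egr1cKO effect compares Egr1cKO with Egr1cKO control and shows what Cre did to mice with floxed Egr1. Again no member was called in the mean of both sexes, where 3.15% of all genes were. Egr1 averaged 99.6 CPM in Egr1cKO and 28.6 CPM in the controls, which is 1.81 on the log2 scale (SE 0.887, 95% interval -0.07 to 3.69, edgeR adjusted p = 0.296). Without female Egr1cKO replicate 1 it was 0.85. Egr4 had a value of 1.26 (SE 0.998, edgeR adjusted p = 0.546), Egr3 of 0.49 (SE 0.958) and Egr2 of 0.13 (SE 0.665). The NAB genes had small values with smaller errors than the EGR genes, 0.04 for Nab1 (SE 0.194, 95% interval -0.35 to 0.44) and 0.21 for Nab2 (SE 0.359, 95% interval -0.54 to 0.96).

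The 6 genes were not called in either sex, where 0.041% of all genes were called in males and 2.21% in females. In males the log2 fold change was 1.79 for Egr1 (SE 1.25), 1.77 for Egr4 (SE 1.43), 1.64 for Egr3 (SE 1.38) and 0.87 for Egr2 (SE 0.918). The groups did not overlap for Egr1 and Egr4, but the share of all genes without overlap there was not counted. In females it was 1.83 for Egr1 (SE 1.26), 0.76 for Egr4 (SE 1.39), -0.66 for Egr3 (SE 1.35) and -0.61 for Egr2 (SE 0.954), with overlap in all 4. The NAB genes lay between -0.02 and 0.25 in both sexes. The interaction of sex with the Egr1cKO effect, which called 0.0228% of all genes, called no member, with values from -2.29 for Egr3 to 0.05 for Egr1 and adjusted p between 0.798 and 1 in edgeR's test.

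What Cre did to floxed mice beyond what it did to unfloxed mice is the difference of these effects, and it called 0% of all genes and no member in edgeR's test. At an unadjusted p under 0.05 it had 1125 genes and none of the 6, and DESeq2 called 3 genes. For Egr1 the difference was -0.17 (SE 1.22, 95% interval -2.75 to 2.4), so an added loss or gain of Egr1 RNA of several-fold would not have been detectable. For Egr3 it was -1.76 (SE 1.37) and for Egr4 -1.79 (SE 1.4), and without male Cre control replicate 1 these were -0.18 and 0.07. Egr2 had -0.16 (SE 0.922), Nab1 0.06 (SE 0.275) and Nab2 0.64 (SE 0.509). Floxing without Cre, Egr1cKO control against wild type, also called 0% and no member in edgeR's test (1573 genes at an unadjusted p under 0.05, none of the 6, and 0 genes by DESeq2). Egr1 had a log2 fold change of -0.95 there (SE 0.872, edgeR adjusted p = 0.874), which was -0.11 without female wild type replicate 2. The other EGR genes lay between -0.37 and 0.55, and the NAB genes lay between -0.05 and 0.

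**Figure D4:**
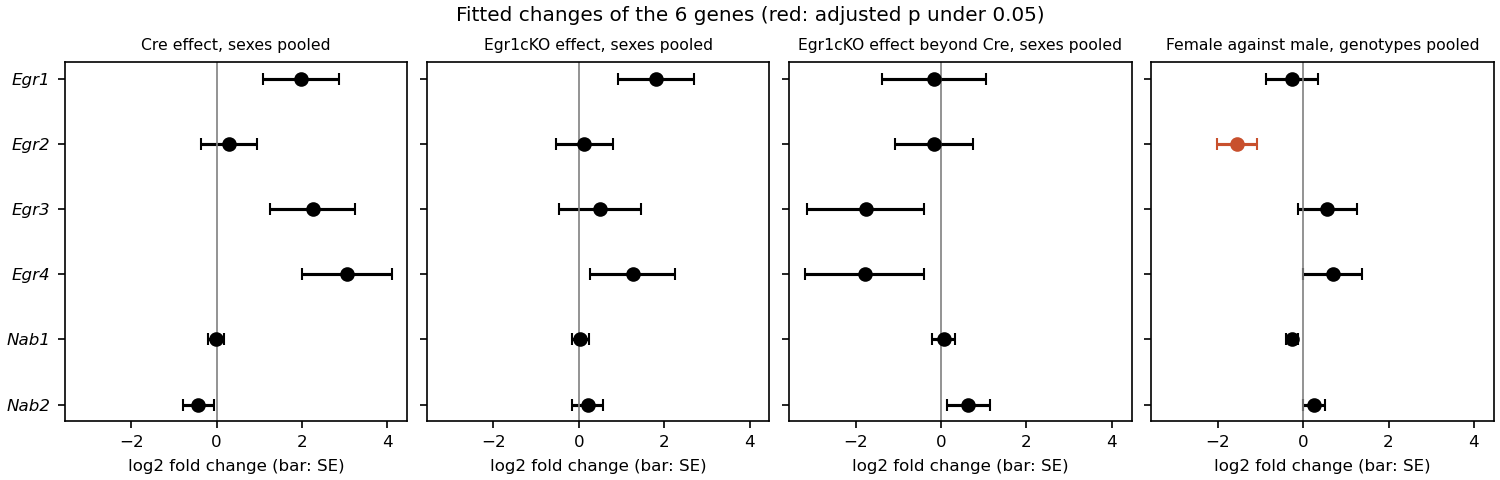
Fitted log2 fold change of each gene in 4 comparisons; points are estimates from edgeR, bars are standard errors, and red marks an adjusted p under 0.05. The EGR estimates of the Cre effect reach 3.05 with wide bars and are not called, the NAB genes stay within 0.64 of 0 in all 4 panels, and Egr2 at -1.55 in the sex comparison is the only red point.

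The other early genes were described with the same contrasts, from a list chosen with earlier results of these data known. In the Egr1cKO effect 0 of 31 were called in the mean of both sexes, with a median log2 fold change of 0.83, 27 of 31 above 0, against a median of -0.03 over all genes. In the Cre effect 0 of 31 were called, with a median of 0.61 and 25 of 31 above 0, and in the difference of these effects the median was -0.02. In females alone, Myc, the growth regulator, rose with Cre (log2 fold change 1.29, SE 0.285, edgeR adjusted p = 0.0228). The EGR targets had 1 called gene in the Cre effect, Vegfa, which rose by 0.83 in the mean of both sexes (SE 0.148, edgeR adjusted p = 0.00265) and by 1.38 in females. None of the 19 signalling or 13 NuRD genes was called in the Cre effect or the Egr1cKO effect in edgeR's test.

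Cell type markers moved in the same comparisons. All 4 somatotrope and lactotrope genes fell in the Egr1cKO effect as the mean of both sexes, with a median of -1.38, and their summed level ran from 66100 to 129000 CPM in Egr1cKO and from 168000 to 414000 in the controls. Of the 5 corticotrope and melanotrope genes 3 rose, with Pomc, the precursor of adrenocorticotropin, at 2.22 (SE 0.41, edgeR adjusted p = 0.00334), and of the 5 posterior lobe genes 3 rose. In the pooled Cre effect, Foxl2 (1.09) and Cga (1.12) rose among the 5 gonadotrope genes and Tshb (1.36) among the 3 thyrotrope genes, and Prl fell (-2.25). The summed level of the gonadotrope genes ran from 2060 to 3330 CPM in female Cre control against 985 to 1210 in female wild type, and from 3040 to 6900 against 2630 to 2910 in males. Cga weighs most in this sum, with a median of 1830 CPM over the 24 libraries against 311 for Fshb and 62.6 for Nr5a1. The part of these shifts in the EGR values was not tested.

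Egr2 was the only member called between the sexes. It was lower in females, at 1.81 CPM against 5.33 CPM as means over the genotypes, which is -1.55 on the log2 scale (SE 0.472, 95% interval -2.53 to -0.58, edgeR adjusted p = 0.0217). The female libraries ran from 0.0935 to 5.16 CPM with a median of 1.38, and the male libraries from 1.08 to 16.3 CPM with a median of 3.85, so the sexes overlapped. In this comparison 21.7% of all genes were called and 11.7% were lower in females, so that 1 of 6 members is near the background share. The other 5 were not called: Egr1 had a value of -0.27 (SE 0.608), Egr3 of 0.57 (SE 0.682), Egr4 of 0.69 (SE 0.699), Nab1 of -0.26 (SE 0.137, edgeR adjusted p = 0.187) and Nab2 of 0.26 (SE 0.254).

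Fitted on all libraries, the direction was the same in all 4 genotypes, and in Cre control it turned to 0.15 without male Cre control replicate 1. The log2 fold change of Egr2, female against male, was -0.89 in wild type (SE 0.928), -1.59 in Cre control (SE 0.938), -1.13 in Egr1cKO control (SE 0.937) and -2.61 in Egr1cKO (SE 0.981, edgeR adjusted p = 0.077). None of these passed alone. The other EGR genes were not called in any genotype either, with values from -1.08 for Egr1 in Egr1cKO control and for Egr3 in Egr1cKO to 2.41 for Egr3 in wild type (SE 1.46, no overlap), and Nab1 lay between -0.33 and -0.21. In wild type, Cre control, Egr1cKO control and Egr1cKO, 0.283%, 3.61%, 0.451% and 13.1% of all genes were called. The pooled call was lost in 3 of the 24 fits that left out 1 library: without male Cre control replicate 1 the value was -1.13 (adjusted p = 0.0661), without male Egr1cKO replicate 2 it was -1.31 (adjusted p = 0.0535), and without female wild type replicate 1 it was -1.49 (adjusted p = 0.054), all in edgeR. The sexes also differed in the mitochondrial share, with medians of 3.17% in males and 6.36% in females. With that share as a covariate, Egr2 had a value of -1.14 (edgeR adjusted p = 0.492).

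**Figure D5:**
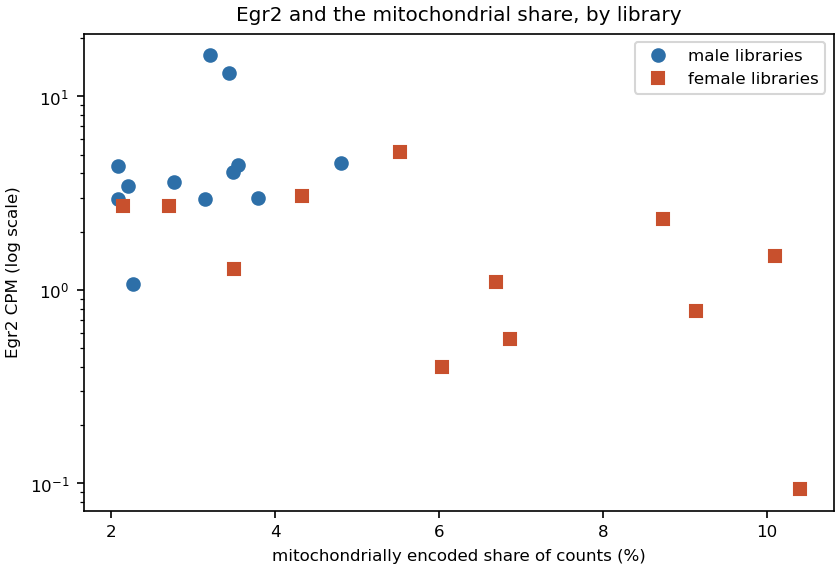
Egr2 level (CPM, log axis) against the mitochondrially encoded share of counts (%) in the 24 libraries, males as blue circles and females as red squares. Male libraries lie between 2.08% and 4.8%, female libraries reach 10.4%, and the lowest Egr2 level, 0.0935 CPM, is in the library with the highest share.

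Because EGR2 marks Schwann cells, their genes were examined beside it. Mbp, a myelin gene, ranged from 26 to 74.9 CPM, Sox10, a glial transcription factor, was at 0 in 1 library and Prx, a Schwann cell scaffold gene, at 0 in 2. Of the 5 Schwann and myelin genes tested, 0 were lower in females in edgeR's test, and their summed level ran from 51 to 131 CPM in males and from 65.2 to 137 CPM in females. These genes did not fall in females with Egr2. Markers of other cells did: 3 of 5 endothelial genes were lower in females (summed level 108 to 172 CPM against 140 to 258 CPM) and 4 of 5 gonadotrope genes were lower (985 to 3330 CPM against 1680 to 6900 CPM), while 5 of 5 posterior lobe genes were higher. The part of these cells in the Egr2 value was not tested.

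Nab2 differed most between the sexes among the Cre control mice. All 3 female libraries lay above all 3 male libraries there, with means of 43.6 CPM (SD 10.5, n = 3) and 19.5 CPM (SD 5.64, n = 3), which is 1.16 on the log2 scale (SE 0.516, edgeR adjusted p = 0.179). Fitted on these 6 libraries alone it was called (1.19, edgeR adjusted p = 0.00724), where 3066 of all genes were called against 791 in the fit over all groups. In the other genotypes the value lay between -0.43 and 0.18.

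Among the partner genes, the pooled sex comparison called 6 of 31 early genes, 2 higher and 4 lower in females, with a median of -0.06, the same as over all genes. Myc was higher (log2 fold change 1.26), as was Jund, an AP-1 subunit (0.56). Nr4a3, an orphan nuclear receptor, was lower (-2.02, edgeR adjusted p = 0.0406), with Dusp2 (-1.04) and the Krüppel-like factors Klf6 (-0.64) and Klf10 (-0.59). Of the 13 NuRD genes 3 were higher, among them Chd4, the remodeller that NAB proteins bind (0.30, SE 0.0924, edgeR adjusted p = 0.0232), with Chd3 (0.39) and Mta1 (0.30), and 3 were lower, Rbbp7 (-0.49), Gatad2b (-0.31) and Mta3 (-0.29). Of the 19 signalling genes 2 were higher, Rps6ka2 (1), a kinase downstream of ERK, and Crtc2 (0.40), a CREB coactivator, and 3 were lower, among them Map2k1 (-0.40), a kinase upstream of ERK. Of the 16 EGR targets Cd44, a cell adhesion gene, was higher (0.93), and 2 were lower. These shares are to be read against the 21.7% of all genes called.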

How the data were processed

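The values the authors deposited are raw, unnormalized counts of reads for each Ensembl gene in 24 polyA libraries. The submitters' processing notes name Trim Galore 3.8.2, FastQC, STAR 2.7.9 and the build GRCm38. The sources used here do not give the counting tool, its annotation or its strand setting. Symbols and positions came from GENCODE M21, and 114 identifiers had no symbol there. Genes were kept by filterByExpr in edgeR 4.0.16 (R 4.3.3), which left 21927 of 35191. Libraries were scaled by TMM, 1 model held a mean for each of the 8 groups (16 residual degrees of freedom), and 14 comparisons were tested with the robust quasi-likelihood test, with BH adjustment over 21927 genes at 0.05. A pooled effect is the mean of the sexes' or genotypes' effects. Deviations are log2 CPM (prior count 2) minus the group mean. A listed symbol with several identifiers, which was 1 (Ptp4a1), was followed by the one with the most counts.

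All 6 genes are given in the comparisons, singly or by a range. For each, the 3 most similar genes with a mean of at least 5 CPM are named, without members, predicted genes and pseudogenes. Of each list, called genes are named, up to 4 with the smallest p, and the others where the text counts them. The genes and lists were chosen with earlier results of these data known. The listed genes lowest or highest in r were named after their values were seen. Alternatives were DESeq2 1.42.0, its size factors, no filter on low counts, only the groups compared, the mitochondrial share as a covariate, and leaving out each library. The sex difference within floxed and within unfloxed genotypes was added after the data were seen. The edgeR test was tried on simulated data for the Egr1cKO effect in males alone. The permutation test and DESeq2 were not tried on simulated data. Precision is limited by 3 libraries per group and, for Egr2, by counts as low as 2. Reads carry no molecular identifiers, so counts are not independent molecules. Some listed genes are not reported here by name and stay in the counts of their lists.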

Additional observations from a re-analysis of the deposited data

How the results depend on the processing

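With another tool, scaling, filter, group choice or covariate, 173 of 205 re-fitted values of the 41 gene results kept their direction and side of the threshold, 8 turned, 3 lost a call and 21 gained one. Without the filter on low counts, members were called in all 14 comparisons: 3, 1 and 2 for the Egr1cKO effect in males, females and both, 4, 2 and 3 for the Cre effect, 2 beyond Cre, 1 for the interaction, 1 for floxing, and 3, 3, 1, 2 and 3 for the sexes pooled and in wild type, Cre control, Egr1cKO control and Egr1cKO. Of all genes, this fit called 339 against 9 with the filter for the Egr1cKO effect in males. For the Cre effect it called 704 against 51 in males, 1149 against 265 in females and 712 against 229 in both. For the interaction it called 167 against 5, and for floxing 63 against 0. Its counts of all genes in the other comparisons are not given here. Without the filter, edgeR replaced each gene's own spread by a common one, for Egr1 0.743 in place of 23.9, where the filtered fit used 25. DESeq2 called 1 member in the pooled Cre effect (Egr4), among 493 of all genes. It called 1 in the sex difference of Egr1cKO (Egr2, -2.57, adjusted p = 0.0249), among 4162. The fit of only the groups compared called 1 in the sex difference of Cre control (Nab2), among 3066.

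With the mitochondrial share as a covariate, 0 members were called in the pooled sex difference, as with only the floxed genotypes (Egr2 -1.87, edgeR adjusted p = 0.0552) or only the unfloxed ones (Egr2 -1.24, edgeR adjusted p = 0.44; Egr1 0.5). The covariate turned Egr3 in female Egr1cKO (0.41), Nab2 in the Egr1cKO effect (-0.32) and the sex difference (-0.43), Nab1 in the Cre effect (0.01), Egr1 in the sex difference (0.65), and Egr1 (0.34) and Egr2 (0.15) beyond Cre. In r it gave 0.704 for Egr1 with Egr2 (BH 0.052), 0.1 for Egr1 with Nab2 and -0.0328 for Egr3 with Nab1. Without the 2 farthest libraries r was 0.558, 0.504 and 0.505 for Egr1 with Egr2, Egr3 and Egr4, 0.752 for Egr3 with Egr4, -0.0911 for Egr3 with Nab2 and 0.0642 for Egr4 with Nab2. Except where said, the cause was not tested.

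Leaving out 1 library at a time moved r between 0.644 and 0.825 for Egr1 with Egr2 (call lost in 5 of 24 fits, BH up to 0.071), 0.584 and 0.777 for Egr1 with Egr3 (lost in 1, BH 0.054), -0.527 and -0.145 for Egr1 with Nab1, 0.0309 and 0.612 for Nab1 with Nab2, 0.381 and 0.676 for Egr2 with Egr4, -0.248 and 0.0388 for Egr1 with Nab2, -0.104 and 0.113 for Egr3 with Nab1, -0.138 and 0.113 for Egr3 with Nab2, and -0.158 and 0.0988 for Egr4 with Nab2. Log2 fold changes that changed sign ran, for Egr1, from -1.13 to 0.82 beyond Cre, -0.76 to 0.21 between the sexes and -1.86 to 0.88 in the interaction. For Egr2 they ran from -0.58 to 0.54 for Cre, -0.82 to 0.72 beyond Cre, -0.53 to 0.54 for Egr1cKO and -3.14 to 0.15 between Cre control sexes. For Egr3 they ran from -0.73 to 2.34 for Cre and -1.6 to 0.92 for Egr1cKO in females, and for Egr4 from -0.01 to 4.54 for Cre in males and -2.31 to 0.07 beyond Cre. For Nab1 they ran from -0.14 to 0.09 for Cre, -0.07 to 0.19 beyond Cre and -0.08 to 0.17 for Egr1cKO, and for Nab2 from -0.01 to 1.01 for Cre in females. Members called ranged from 0 to 1 between the sexes, pooled and in Egr1cKO (1 without female Egr1cKO replicate 1).

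All genes called, over every alternative, ran from 2 to 339 against 9 for the Egr1cKO effect in males, 142 to 3081 against 484 in females and 294 to 4218 against 691 in both, 4 to 704 against 51, 2 to 3603 against 265 and 108 to 712 against 229 for the Cre effect, 0 to 320 against 0 beyond Cre, 0 to 167 against 5 for the interaction and 0 to 1665 against 0 for floxing. Between the sexes they ran from 326 to 5503 against 4761 pooled, 9 to 1024 against 62 in wild type, 154 to 3066 against 791 in Cre control, 29 to 1038 against 99 in Egr1cKO control and 215 to 4162 against 2863 in Egr1cKO. No paired analysis was possible because each library carries a number of its own and the groups share none.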
